A study of Mus musculus with 9 samples.

Results

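The levels of 41 genes of DNA replication and S phase were followed in CD11b+ bone marrow cells of mice. They were chosen by name as a module of genes with known roles in copying DNA: the subunits of the MCM helicase, factors that license and fire origins, polymerases and fork proteins, enzymes of nucleotide supply, histone and chromatin factors, checkpoint and repair genes, and 2 regulators of entry into S phase. All 41 are among the 23337 genes in the count tables, and all 41 passed the filter on low counts that left 12553 genes for testing. The rule uses gene names and the low-count filter, not differences between groups. The members were, however, chosen with earlier results of these data known.

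Male C57BL/6 mice, obtained at a few weeks of age, formed 3 groups of 3 mice. The PBS group received 100 µl of PBS by tail vein on days 1, 3 and 5. The EnzR EVs group received extracellular vesicles from an enzalutamide-resistant prostate cancer cell line (10 µg of vesicle protein in 100 µl) on the same days. The EnzR EVs + HDL NPs group received the same vesicles and, on days 0, 2 and 4, synthetic nanoparticles that resemble high-density lipoprotein (100 µl at 1 µM, per the labels). The study's methods give a higher concentration for these injections, so the dose is uncertain. No mouse carried a tumour or received HDL NPs alone in the libraries used here, so an effect of the nanoparticles without vesicles was not measured. Bone marrow of femurs and tibias was cleared of red cells, CD11b+ cells were taken by magnetic positive selection, and total RNA was sequenced. All comparisons are between mice, but they are between bulk preparations: fewer cycling cells and less RNA per cycling cell cannot be told apart.

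DNA replication begins when the MCM complex, a ring of 6 related subunits, is loaded onto origins during G1 and is then activated as a helicase in S phase. Polymerases extend the new strands behind it, a sliding clamp tethers them, and ribonucleotide reductase supplies the deoxynucleotides. The genes of these proteins are switched on together near the G1/S boundary, largely through E2F transcription factors, which are held back by retinoblastoma proteins in resting cells. In bone marrow, proliferation is a property of progenitors and of early granulocyte stages, while mature neutrophils and monocytes no longer divide. CD11b+ marrow holds both.

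The libraries held between 2575776 and 18110561 counts. Itgam, which encodes CD11b, was at 1389 to 2006 CPM (a library's counts on a common scale, adjusted by TMM factors) in the 9 libraries, so the selected surface marker was present in each. Late neutrophil markers were abundant, with a summed level between 30539 and 145570 CPM over the 9 of 10 listed genes in the tables. The 7 early granulocyte markers (Elane, Mpo, Prtn3, Ctsg, Ms4a3, Cebpe and Fcnb) summed to between 1403 and 2675 CPM, 7 monocyte markers to between 1843 and 3765 CPM and 5 stem and progenitor markers to between 71.6 and 122 CPM. Markers of B cells (8.59 to 32.9 CPM), T and NK cells (25.5 to 77.9), platelets (25.3 to 104) and the erythroid lineage (18.5 to 68.7) were scarce. The globin genes Hbb-b1 and Hba-a1 were at 0 counts in every library. Since Alas2 (5.56 to 26.6 CPM) and Slc4a1 (6.6 to 31.6 CPM) were detected in each, these zeros are not read as low expression. A group of 3 libraries stood apart by their share of Rn45s, the precursor of ribosomal RNA: PBS replicate 1 (20.3% of counts), EnzR EVs replicate 1 (42.7%) and EnzR EVs replicate 3 (14.2%), against 0.657% to 2.87% in the other 6. PBS replicate 1 and EnzR EVs replicate 1 were also the libraries with the fewest counts (6006087 and 2575776). EnzR EVs replicate 1 had the lowest TMM factor, 0.71, beside 0.947 to 1.14 in the others. A lower factor raises all CPM of a library.

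The promoters of the members share sequence features that the choice of genes did not use. RefSeq promoters (GRCm38.p6, 250 bases before to 50 bases after the transcription start) were at hand for 31 of the 41 members. Each was searched on both strands for the E2F word, taken as any of TTTCCCGC, TTTCGCGC, TTTGCCGC and TTTGGCGC, for the CCAAT box bound by NF-Y, and for the CHR word TTTGAA of cell cycle genes. The E2F word was in the promoters of 14 of 31 members (45.2%), against 2.6% of the 27025 genes in the promoter table and 4.67% of the 8932 of them that were tested for expression. CCAAT was in 22 of the 31 (71.0%, against 41.1% of all genes) and the CHR word in 5 (16.1%, against 20.2%). Of the genes tested for expression, 43.1% held CCAAT and 14.5% the CHR word, so the members' CHR share lay between the shares of the 2 backgrounds. Other lists held these words too. Of 43 other replication genes with a promoter, 10 (23.3%) held the E2F word and 22 (51.2%) CCAAT, and of 22 G1/S regulators 8 (36.4%) and 11 of 22 did. Of 27 mitosis genes, 1 (3.7%) held the E2F word, 21 (77.8%) CCAAT and 21 (77.8%) the CHR word. A match is a description of the letters and not evidence of a bound factor.

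The stretches below are shown because they belong to helicase subunits and to a chromatin factor whose levels are described next. Each is 120 bases of promoter read 5′ to 3′ on the strand of the gene, with the E2F word, on either strand, in capitals. The Mcm5 stretch is chr8:75109312-75109431 on the plus strand and holds 2 overlapping words, one on each strand. For Mcm6 it is chr1:128359740-128359859 on the minus strand, with 3 words of which 2 overlap. For Mcm7 it is chr5:138171973-138172092 on the minus strand, before 1 of the 2 starts listed. The Cdca7 stretch is chr2:72476099-72476218 on the plus strand and ends 1 base before the start.
Mcm5: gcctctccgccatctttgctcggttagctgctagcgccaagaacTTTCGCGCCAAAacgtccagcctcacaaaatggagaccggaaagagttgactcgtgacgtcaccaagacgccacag
Mcm6: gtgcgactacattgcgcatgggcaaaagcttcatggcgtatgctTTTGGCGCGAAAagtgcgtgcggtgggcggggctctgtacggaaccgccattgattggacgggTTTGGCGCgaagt
Mcm7: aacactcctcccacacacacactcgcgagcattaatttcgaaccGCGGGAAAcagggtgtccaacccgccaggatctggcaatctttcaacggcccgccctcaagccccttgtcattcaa
Cdca7: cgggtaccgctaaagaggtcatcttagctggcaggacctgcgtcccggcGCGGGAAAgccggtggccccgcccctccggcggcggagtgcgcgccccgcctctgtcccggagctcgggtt

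The promoters of Rrm1 and Rrm2, the 2 subunits of ribonucleotide reductase and the members with the highest levels, held no E2F word of this spelling. They are shown as the counterexample, with the CCAAT box nearest the start in capitals, at chr7:102441575-102441694 and chr12:24708134-24708253, both on the plus strand and both ending 1 base before the start.
Rrm1: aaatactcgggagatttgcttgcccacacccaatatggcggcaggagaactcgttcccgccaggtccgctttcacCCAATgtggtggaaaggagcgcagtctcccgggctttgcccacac
Rrm2: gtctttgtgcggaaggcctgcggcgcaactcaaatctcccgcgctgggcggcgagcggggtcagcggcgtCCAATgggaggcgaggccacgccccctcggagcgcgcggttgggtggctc

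Levels were compared between genes only per kilobase of exon (GENCODE M21 annotation of GRCm38). In PBS mice the members spanned 0.987 ± 0.415 CPM per kb for Ung, a uracil-DNA glycosylase, to 70.6 ± 17.1 CPM per kb for Rrm2 (SD, n = 3, as throughout). Rrm1 came second with 53.1 ± 18.3 CPM per kb. The ranges of mean ± SD of Rrm2 and Rrm1 overlapped, although Rrm2 was above Rrm1 per kb in each PBS mouse. Pcna, the sliding clamp, followed at 40.2 ± 1.05 CPM per kb, and Mcm6 at 35.9 ± 7.67 CPM per kb, which again overlapped. At the low end stood Gins2, a subunit of the GINS complex that activates the helicase, at 1.29 ± 0.164 CPM per kb, and Exo1, a repair exonuclease, at 1.87 ± 0.493 CPM per kb. Processed pseudogenes of Pcna, Tyms and Nasp are annotated and could take or lend reads. The Gins2 value is uncertain in scale, because 67.32% of its annotated exon bases also lie in exons of Gse1 on the other strand.

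**Figure D1:**
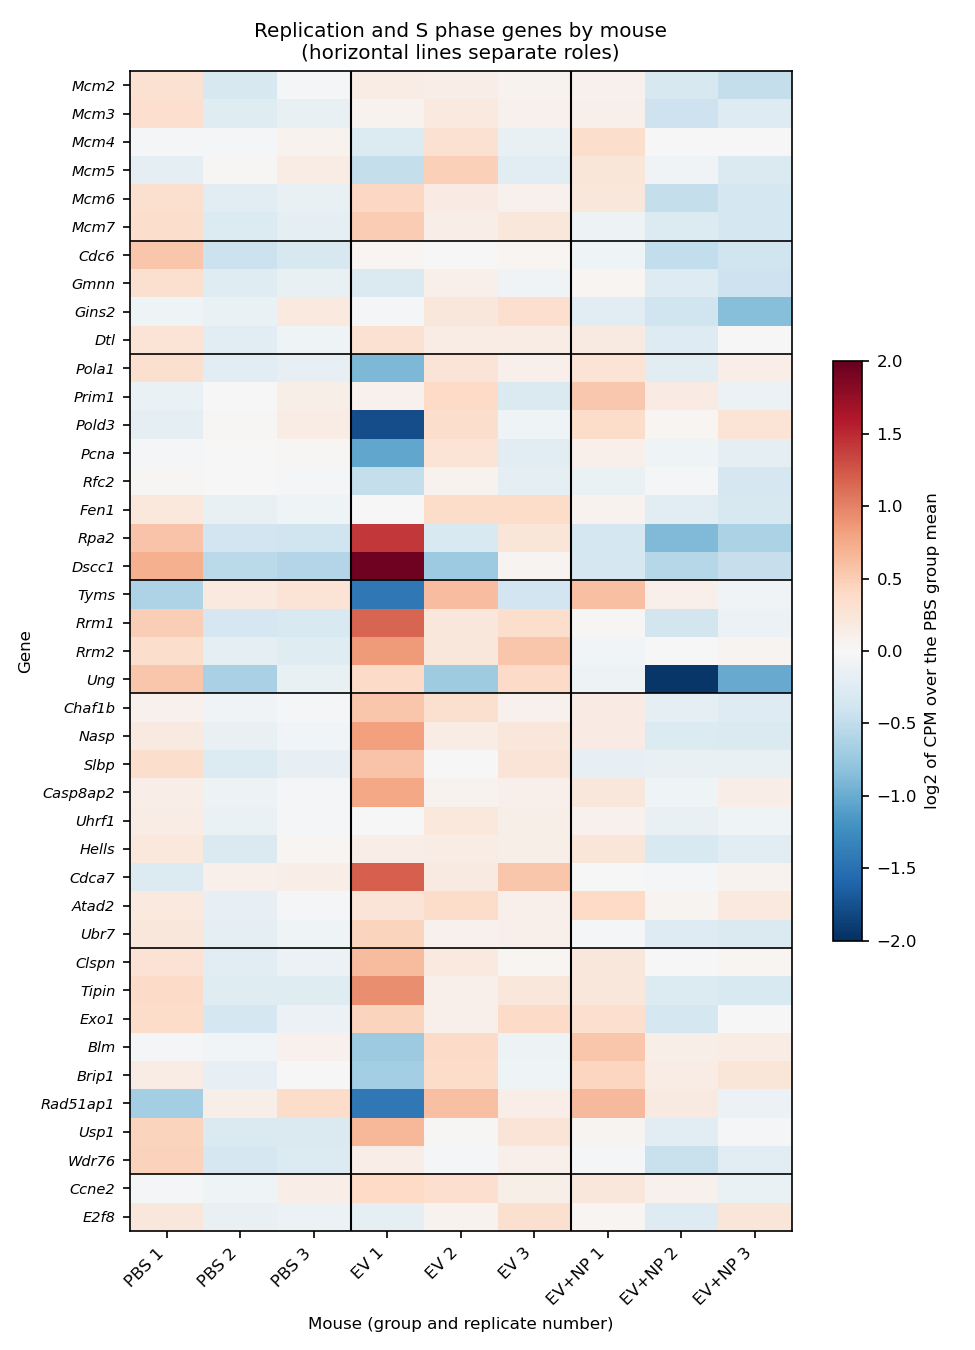
Each column is a mouse (PBS, EnzR EVs labelled EV, and EnzR EVs + HDL NPs labelled EV+NP) and each row a member, ordered by role; colour is the log2 of its CPM over the mean CPM of the PBS group. EnzR EVs replicate 1 holds strong values in both directions (Dscc1 at 25.2 CPM, Pold3 at 10.4 CPM), the lowest cell is Ung in EV+NP replicate 2 (0.656 CPM), and the EV+NP columns of replicates 2 and 3 are mostly blue or pale.

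Among the MCM subunits, Mcm7 differed most between the treated groups. Mcm7 was at 105, 67.8 and 72.5 CPM in PBS mice, 116, 89.4 and 95.6 CPM after EnzR EVs, and 76.4, 67.8 and 64.2 CPM after EnzR EVs + HDL NPs. All 3 mice given vesicles alone were above all 3 given vesicles and HDL NPs, while both groups overlapped with PBS. In every same-numbered pair, however, Mcm7 was higher after EnzR EVs than after PBS. Mcm6 had 196, 134 and 141 CPM in PBS mice, 209, 175 and 167 CPM after EnzR EVs and 184, 113 and 123 CPM with HDL NPs added. Replicate 1 was the highest mouse of every group for Mcm6, and the groups overlapped. The count of Mcm7 may hold reads of Ap4m1 and Cops6, which share 7.25% and 1.45% of its exon bases on the other strand.

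Mcm2 and Mcm3 had the same shape with less spread after vesicles. Mcm2 was at 88.4, 57.2 and 69.6 CPM in PBS mice, at 79.6, 78.6 and 75.0 CPM after EnzR EVs, and at 75.9, 57.3 and 51.8 CPM with HDL NPs added. Mcm3 was at 106, 71.1 and 76.0 CPM, then 88.9, 96.9 and 89.5 CPM, then 90.1, 63.5 and 70.8 CPM in the same order of groups. Mcm4 and Mcm5 showed no such order. Mcm4 means were 85.1 ± 3.96, 84.3 ± 18.7 and 92.5 ± 13.9 CPM in PBS, EnzR EVs and EnzR EVs + HDL NPs mice, and Mcm5 means were 99.0 ± 11.6, 98.0 ± 35.2 and 97.5 ± 18.5 CPM. For Mcm4 and Mcm5 the spread after EnzR EVs came from 1 mouse on each side: replicate 2 was highest (105 and 138 CPM) and replicate 1 lowest (70.2 and 71.3 CPM). Although the 6 proteins work in 1 ring, their transcripts did not keep 1 ratio. The highest subunit per kb exceeded the lowest by 1.56 to 1.95 times in PBS mice, by 1.72 to 2.44 times after EnzR EVs and by 1.61 to 1.87 times with HDL NPs added, and Mcm6 was the highest in 8 of the 9 mice.

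**Figure D2:**
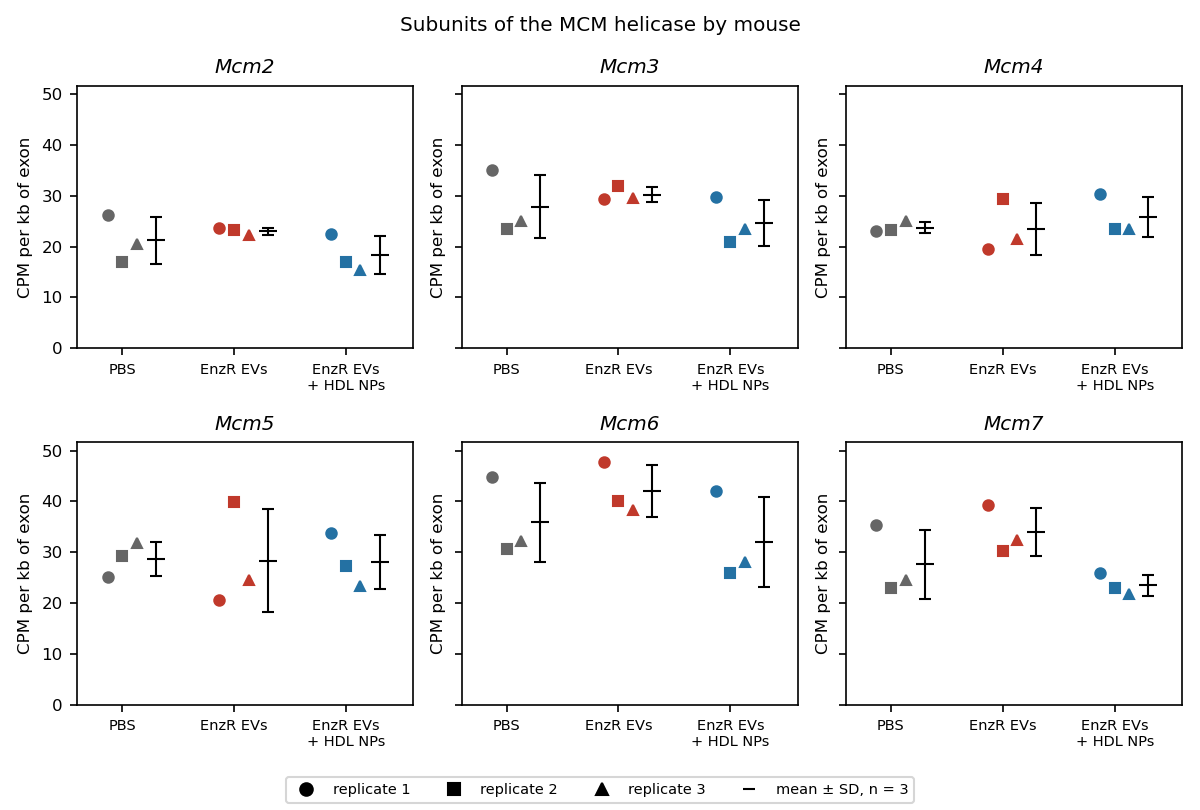
Level of each MCM subunit in CPM per kb of exon (y axis) in the 3 groups (x axis), with a point per mouse, its replicate number as the symbol, and the mean ± SD (n = 3) in black. For Mcm7 the 3 EnzR EVs mice (30.2 to 39.2 CPM per kb) lie above the 3 EnzR EVs + HDL NPs mice (21.7 to 25.8), whereas Mcm4 and Mcm5 overlap in every pair of groups.

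Of the licensing and firing genes, Cdc6, which loads the MCM ring, was at 47.9, 24.2 and 26.1 CPM in PBS mice, 33.5, 33.0 and 33.7 CPM after EnzR EVs and 30.8, 23.2 and 24.7 CPM after EnzR EVs + HDL NPs. The 3 mice given vesicles were nearly equal and all above the HDL NP group, and PBS replicate 1 was above both. Gins2 was at 4.75, 4.60 and 5.78 CPM in PBS mice, 4.94, 5.91 and 6.38 CPM after EnzR EVs and 4.33, 3.81 and 2.79 CPM with HDL NPs. Every mouse given HDL NPs was below every mouse of both other groups, at a level that rested on only 9 counts in EnzR EVs replicate 1. Gmnn, the inhibitor of licensing, averaged 29.4 ± 6.47, 27.9 ± 3.71 and 25.7 ± 4.20 CPM in the 3 groups, and Dtl, the adaptor that marks the licensing factor Cdt1 for destruction, 40.6 ± 7.45, 46.6 ± 2.92 and 40.3 ± 5.94 CPM. Neither gene separated any pair of groups.

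Several polymerase and fork genes had their highest or lowest value in EnzR EVs replicate 1. Pold3, an accessory subunit of polymerase delta, was at 31.2, 36.3 and 39.6 CPM in PBS mice, at 10.4, 45.4 and 33.7 CPM after EnzR EVs and at 46.0, 36.8 and 43.2 CPM with HDL NPs added. Pcna was at 59.3, 61.5 and 62.4 CPM, then 29.6, 73.8 and 53.0 CPM, then 65.6, 57.8 and 54.1 CPM. Both genes had their lowest value of all 9 mice in EnzR EVs replicate 1, and so did Pola1, the catalytic subunit of the priming polymerase, at 30.2 CPM against 48.8 to 70.1 in the other mice. Rpa2, a subunit of the protein that coats single-stranded DNA, had its highest value there, with 47.0, 24.3 and 24.2 CPM in PBS mice, 84.5, 25.7 and 37.7 CPM after EnzR EVs and 24.8, 17.3 and 20.5 CPM with HDL NPs. Dscc1, part of a clamp loader that acts in sister chromatid cohesion, was at 10.7, 4.49 and 4.35 CPM, then 25.2, 3.94 and 6.74 CPM, then 5.18, 4.41 and 4.75 CPM. For Rpa2 and Dscc1 the highest mouse was EnzR EVs replicate 1 and the second highest PBS replicate 1, the libraries with the largest shares of Rn45s. The values of EnzR EVs replicate 1 rested on 19 counts for Pold3, 54 for Pcna, 55 for Pola1, 154 for Rpa2 and 46 for Dscc1.

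Fen1, Rfc2 and Prim1 had smaller ranges. Fen1, the nuclease that trims Okazaki fragments, averaged 49.3 ± 6.73 CPM in PBS mice, 58.7 ± 8.10 after EnzR EVs and 44.6 ± 6.51 with HDL NPs. The counts of Fen1 may include reads of an antisense gene, since Gm10143 covers 78.82% of its exon bases. Rfc2, a clamp loader subunit, was between 69.1 and 72.0 CPM in the PBS mice and at 64.6, 68.4 and 55.7 CPM with HDL NPs, so these groups did not overlap, and its mean after EnzR EVs was 62.2 ± 11.5 CPM, with its lowest value of all 9 mice, 51.0 CPM, in replicate 1. The count of Rfc2 may hold reads of Lat2, which shares 15.1% of its exon bases on the other strand. Prim1, the primase, averaged 21.2 ± 1.88, 22.6 ± 5.39 and 24.8 ± 5.64 CPM.

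Both subunits of ribonucleotide reductase stood above PBS in the means after EnzR EVs. Rrm1, the large subunit, was at 297, 168 and 172 CPM in PBS mice, at 474, 249 and 270 CPM after EnzR EVs and at 216, 164 and 195 CPM with HDL NPs added. Rrm2, the small subunit that limits activity to S phase, was at 198, 135 and 131 CPM, then 281, 182 and 228 CPM, then 150, 156 and 161 CPM. For both genes every mouse given vesicles alone was above every mouse given HDL NPs in addition, and the PBS group overlapped the vesicle group only through PBS replicate 1. Tyms, which makes thymidylate, had another pattern. It was at 14.4, 25.4 and 26.7 CPM in PBS mice, 8.23, 34.1 and 17.0 CPM after EnzR EVs and 33.6, 23.8 and 21.2 CPM with HDL NPs. Its 2 lowest libraries were EnzR EVs replicate 1 and PBS replicate 1, with 15 and 82 counts. Ung was the rarest member, at 3.70, 1.61 and 2.29 CPM, then 3.29, 1.54 and 3.31 CPM, then 2.36, 0.656 and 1.26 CPM, and its groups overlapped.

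**Figure D3:**
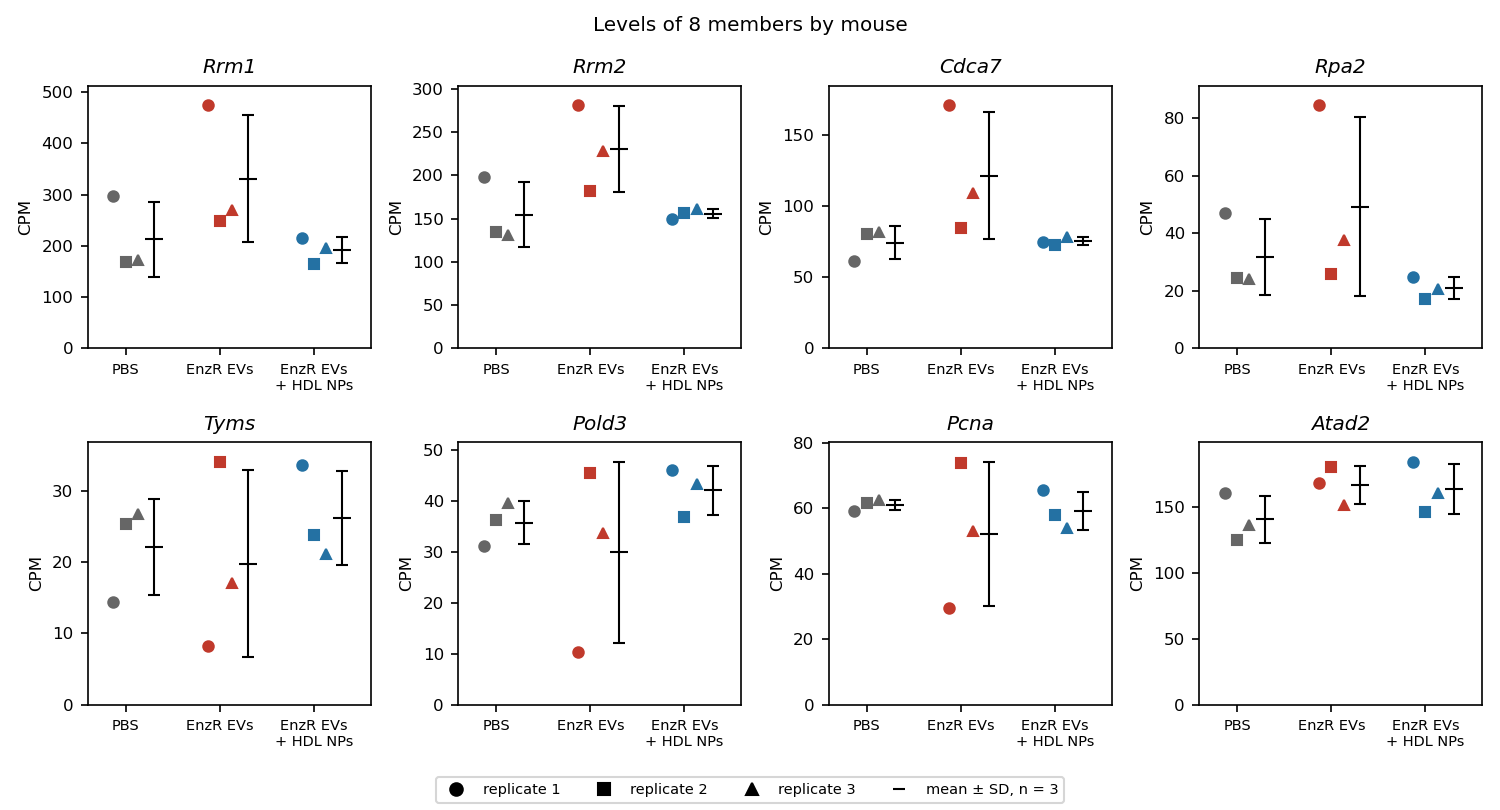
CPM (y axis) of 8 members in the 3 groups (x axis), with a point per mouse and the mean ± SD (n = 3) in black. Rrm1, Rrm2, Cdca7 and Rpa2 have their highest mouse in EnzR EVs replicate 1, where Tyms, Pold3 and Pcna have their lowest; Atad2 overlaps in all groups (125 to 184 CPM).

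All 9 histone, chromatin and methylation genes had higher means after EnzR EVs than after PBS. Cdca7, which recruits the remodeller Hells to chromatin, was at 61.4, 80.2 and 81.7 CPM in PBS mice, at 171, 84.6 and 109 CPM after EnzR EVs and at 75.1, 72.6 and 78.4 CPM with HDL NPs. It was the only member with all 3 EnzR EVs mice above all 3 PBS mice, and the closest pair differed by little (84.6 against 81.7 CPM). Slbp, which binds the stem loop of histone messages, was at 113, 72.6 and 78.9 CPM in PBS mice and at 131, 88.3 and 105 CPM after EnzR EVs. With HDL NPs Slbp was at 78.8, 79.8 and 79.9 CPM, below every vesicle mouse. Nasp, a histone chaperone, averaged 48.1 ± 5.64 CPM after PBS, 64.8 ± 17.6 after EnzR EVs and 44.4 ± 8.15 with HDL NPs, and Chaf1b, a subunit of the chromatin assembly factor, 14.2 ± 0.856, 17.9 ± 2.92 and 13.4 ± 2.15 CPM. Ubr7, a ubiquitin ligase of histones, was at 67.5, 52.6 and 53.1 CPM after EnzR EVs and at 48.6, 41.4 and 40.4 CPM with HDL NPs, which did not overlap. Uhrf1, which reads hemimethylated DNA for maintenance methylation, varied little (80.1 to 103 CPM over all 9 mice). Means of Hells (31.7 ± 5.46, 34.7 ± 0.274 and 30.0 ± 6.37 CPM), Casp8ap2 (80.1 ± 6.87, 102 ± 29.9 and 85.9 ± 9.71 CPM) and Atad2 (140.0 ± 18.0, 166 ± 14.3 and 163 ± 19.2 CPM) stood in groups that overlapped.

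Among the checkpoint and repair genes, Blm, a helicase that resolves recombination intermediates, was at 26.4, 26.1 and 29.0 CPM in PBS mice, 16.5, 35.3 and 25.3 CPM after EnzR EVs and 39.9, 29.5 and 30.2 CPM with HDL NPs. It was the only member with every HDL NP mouse above every PBS mouse. Brip1, a helicase that works with Brca1, averaged 37.0 ± 3.97, 35.3 ± 12.4 and 44.9 ± 4.69 CPM, and Rad51ap1, a factor of homologous recombination, 17.7 ± 5.97, 17.6 ± 10.3 and 21.4 ± 5.79 CPM. These 3 genes had their lowest mouse in EnzR EVs replicate 1, on 30, 42 and 12 counts. Tipin and Clspn, which protect stalled forks, had theirs elsewhere: Tipin averaged 36.7 ± 9.84, 50.7 ± 16.6 and 34.4 ± 7.49 CPM and Clspn 39.1 ± 7.72, 48.4 ± 10.6 and 41.8 ± 3.65 CPM. Usp1, which removes ubiquitin from the clamp and from Fancd2, averaged 101 ± 32.2, 128 ± 29.1 and 97.0 ± 9.74 CPM, Wdr76 36.0 ± 11.9, 37.7 ± 2.39 and 30.8 ± 4.48 CPM, and Exo1 14.6 ± 3.84, 18.1 ± 2.22 and 14.8 ± 3.43 CPM.

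The 2 regulators among the members had close means in the 3 groups. Ccne2, a cyclin that drives entry into S phase, averaged 20.0 ± 1.63, 24.4 ± 2.45 and 21.0 ± 2.55 CPM, and its count may hold reads of Ints8, which shares 17.42% of its exon bases on the other strand. E2f8, a repressor of the E2F targets, averaged 97.0 ± 14.2, 103 ± 17.6 and 98.5 ± 16.6 CPM.

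The first comparison asked whether EnzR EVs altered the replication genes of the marrow cells. By edgeR's quasi-likelihood test with Benjamini-Hochberg adjustment over all genes, no member was called at an adjusted p under 0.05, and 0 of 12553 genes were (0% of all). The lowest adjusted p of a member was 0.928. At an unadjusted p under 0.05, 2 members were higher, Cdca7 and Rrm2, against 1.55% of all genes, and 0 were lower, against 1.92%. One member, Cdca7, had groups that did not overlap with vesicles higher (3.43% of all genes did), and 0 with vesicles lower (4.52%). Read by replicate number, Cdca7, Rrm1, Rrm2, Mcm6, Mcm7 and Slbp were higher after EnzR EVs in every same-numbered pair. The same held for Atad2, Casp8ap2, Chaf1b, Clspn, Dtl, Exo1, Gins2, Nasp, Rpa2, Tipin, Ubr7 and Usp1, and for no other member. No member was lower in every such pair. The share of all genes that did so is not given here. With 3 mice against 3 an exact two-sided permutation test cannot go below 0.1, which is what it gave for Cdca7. The fitted log2 fold change was above 0 for 31 of the 41 members, with a median of 0.197 beside a median of -0.0272 over all genes tested.

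The members with the highest fold changes after EnzR EVs were Dscc1, Cdca7, Rrm1 and Rpa2. The log2 fold change of Cdca7 was 0.69 ± 0.242 (SE, edgeR adjusted p = 0.928) and that of Rrm1 0.64 ± 0.292 (edgeR adjusted p = 0.928). Over the 18 alternative settings Cdca7 ranged from 0.0669 (without the 3 libraries with a high share of Rn45s) to 0.923 and Rrm1 from 0.296 (without EnzR EVs replicate 1) to 0.946. For Dscc1 it was 0.71 ± 0.622 and for Rpa2 0.59 ± 0.415, both with an edgeR adjusted p of 0.928. Without EnzR EVs replicate 1, Dscc1 turned to -0.241 and Rpa2 dropped to 0.0135, so that both rested on that library. Single mice also moved them up: Rpa2 stood at 0.952 without PBS replicate 1 and at 0.944 without EnzR EVs replicate 2, and Dscc1 at 1.16 and 1.24. The lowest were Pcna (-0.198 ± 0.263), Pold3 (-0.189 ± 0.361), Rfc2 (-0.170 ± 0.173) and Tyms (-0.0888 ± 0.411), with edgeR adjusted p of 0.932, 0.945, 0.928 and 0.983. Pcna, Pold3 and Tyms turned positive without that same library (0.0605, 0.153 and 0.204). Rfc2 stood at -0.0505 without it and at -0.291 without EnzR EVs replicate 2.

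Leaving out the libraries with the fewest counts (EnzR EVs replicate 1 and PBS replicate 1) made the vesicle comparison more uniform. The fitted log2 fold change was then above 0 for 40 of 41 members, with a median of 0.278, and both remaining vesicle mice lay above both remaining PBS mice for 28 of 41 members, where 20.9% of all genes did so. Still no member passed the adjusted threshold. Without the 3 libraries with a high share of Rn45s, which leaves 1 vesicle mouse, 39 of 41 members were higher, with a median of 0.313. Without PBS replicate 1 alone, 33 members were higher, the median was 0.341 and 7 members (17.1%) had an unadjusted p under 0.05, beside 8.31% of all genes. That count, 2 with all mice (4.88%, beside 3.47% of all genes), also rested on single mice. Without PBS replicate 2 or 3 it was 1 (2.44%), beside 1.56% and 1.20% of all genes. Without EnzR EVs replicates 1, 2 and 3 it was 0, 7 and 3 (0%, 17.1% and 7.32%), beside 3.57%, 16.6% and 2.44% of all genes. With the replicate number as a block 5 members (12.2%) had an unadjusted p under 0.05, beside 5.95% of all genes, with 0 members and 1 gene called.

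The second comparison set mice given vesicles and HDL NPs against PBS. No member was called by edgeR (0% of 12553 genes were), and the adjusted p was 1 for every member. No member had an unadjusted p under 0.05, against 1.02% of all genes higher and 1.12% lower. Blm was higher without overlap (6.96% of all genes were), and Gins2 and Rfc2 were lower without overlap (6.21% of all genes were). Of the 41 members, 16 had higher and 25 lower means, with a median log2 fold change of -0.0569 beside -0.00718 over all genes. The lowest were Ung (-0.758 ± 0.528), Rpa2 (-0.591 ± 0.408), Gins2 (-0.468 ± 0.262) and Dscc1 (-0.387 ± 0.591), and the highest Blm (0.290 ± 0.245), Brip1 (0.283 ± 0.233), Rad51ap1 (0.262 ± 0.400) and Pold3 (0.231 ± 0.357). This balance depended on PBS replicate 1: without it, 27 of 41 members were higher with HDL NPs than after PBS, Dscc1 turned to 0.113, Rpa2 stood at -0.214, Ung at -0.442, Rad51ap1 at 0.0326 and Pold3 at 0.145. Without HDL NP replicate 1, Ung stood at -1.34, Rad51ap1 at 0.0459 and Blm at 0.148, without replicate 2 Ung at -0.425, and without replicate 3 Gins2 at -0.310 and Rad51ap1 at 0.423. Without PBS replicate 2 or 3, Dscc1 stood at -0.614 and -0.635, and without PBS replicate 3 Rad51ap1 at 0.478.

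The third comparison asked whether HDL NPs altered the response to EnzR EVs. No member was called by edgeR at an adjusted p under 0.05 (0% of 12553 genes were), and the lowest adjusted p of a member was 0.461, shared by Rpa2, Cdca7, Rrm2, Rrm1, Mcm7, Gins2, Nasp, Fen1, Ubr7 and Slbp. At an unadjusted p under 0.05, 8 members were lower with HDL NPs (19.5% of the members, against 6.97% of all genes) and 0 higher (against 3.58%). Without overlap of the groups, 9 members were lower (22.0%, against 8.58% of all genes), and 0 higher (against 8.99%). These 9 were Mcm7, Cdc6, Gins2, Rpa2, Rrm1, Rrm2, Slbp, Cdca7 and Ubr7, for each of which the exact two-sided permutation p was 0.1, the smallest possible. Means were lower with HDL NPs for 31 of 41 members, with a median log2 fold change of -0.274 beside 0.0331 over all genes. The count of 8 members with an unadjusted p under 0.05, in either direction, rested on single mice. It was 2, 14 and 5 without EnzR EVs replicates 1, 2 and 3 in turn (4.88%, 34.1% and 12.2% of the members), where the share of all genes was 5.19%, 29.3% and 5.90%. Without HDL NP replicates 1, 2 and 3 it was 13, 2 and 3 (31.7%, 4.88% and 7.32%), beside 6.38%, 5.23% and 5.59% of all genes. With the replicate number as a block it was 14 (34.1%, beside 18.2% of all genes), and with library size only it was 1 (2.44%, beside 7.23%).

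Rpa2 had the lowest fold change with HDL NPs against vesicles alone, at -1.18 ± 0.417 on the log2 scale (SE, edgeR adjusted p = 0.461). Dscc1 followed at -1.09 ± 0.617 (edgeR adjusted p = 0.486), Ung at -0.818 ± 0.554 (edgeR adjusted p = 0.528) and Rrm1 at -0.780 ± 0.293 (edgeR adjusted p = 0.461). Without EnzR EVs replicate 1 the value was -0.602 for Rpa2, -0.136 for Dscc1 and -0.442 for Rrm1. Over all left-out mice Ung ranged from -1.42 (without HDL NP replicate 1) to -0.504 (without HDL NP replicate 2; -0.505 without EnzR EVs replicate 3). Cdca7 stood at -0.672 ± 0.242, Gins2 at -0.681 ± 0.269, Rrm2 at -0.561 ± 0.209, Nasp at -0.527 ± 0.219, Mcm7 at -0.525 ± 0.201 and Fen1 at -0.408 ± 0.183. Without EnzR EVs replicate 1, Cdca7 stood at -0.364 and Nasp at -0.307, with Rrm2 at -0.404, Mcm7 at -0.420, Gins2 at -0.750 and Fen1 at -0.516. The highest members were Pold3 (0.420 ± 0.360), Blm (0.324 ± 0.248), Tyms (0.317 ± 0.409) and Brip1 (0.312 ± 0.235), with edgeR adjusted p of 0.594, 0.562, 0.720 and 0.557. Without EnzR EVs replicate 1 these 4 stood at 0.0746, 0.119, 0.0164 and 0.106, and without EnzR EVs replicate 2 at 0.790, 0.597, 0.924 and 0.568. All 4 turned negative without the 3 libraries with a high share of Rn45s (-0.117, -0.0914, -0.381 and -0.0952). The vesicle group took part in the first and the third comparison, so the 2 sets of fold changes are not independent.

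**Figure D4:**
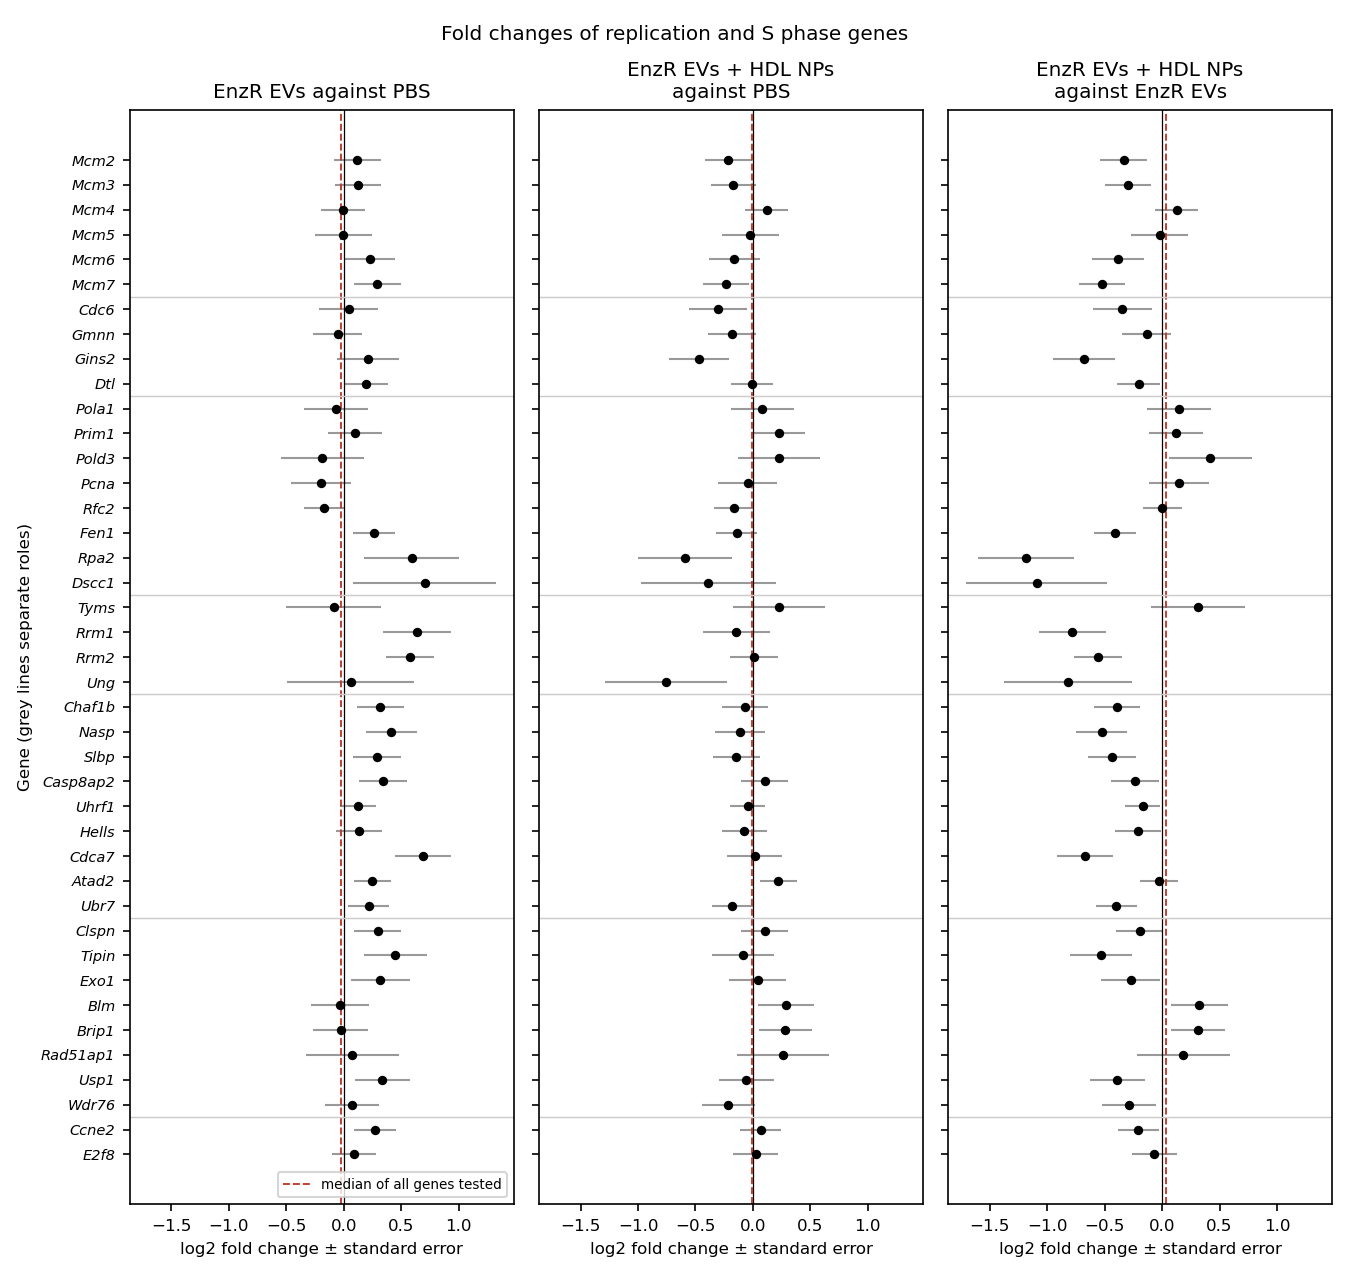
Log2 fold change with its standard error (x axis) of each of the 41 members (y axis, by role) in the 3 comparisons; the dashed line is the median of all 12553 genes tested. Most points lie to the right of the dashed line for EnzR EVs against PBS (31 of 41 above 0) and to the left of it for EnzR EVs + HDL NPs against EnzR EVs (31 of 41 below 0), and the middle panel is centred near it.

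The choice of scaling moved these medians. With library size only and no scaling factors, the median of all genes was -0.181, 0.0470 and 0.240 in the 3 comparisons, and the median of the members was 0.0250, 0.0127 and -0.0326, with 21, 22 and 20 of 41 higher. Relative to the median of all genes, the median of the members lay between 0.147 and 0.372 over the 18 alternative settings for EnzR EVs against PBS, between -0.134 and 0.0462 for EnzR EVs + HDL NPs against PBS, and between -0.402 and -0.216 for EnzR EVs + HDL NPs against EnzR EVs.

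In the PBS and HDL NP groups 1 mouse was highest for most members. PBS replicate 1 was the highest of its group for 30 of the 41 members (73.2%, against 42.8% of all genes) and PBS replicate 2 for 0, being the lowest for 28. In the HDL NP group, replicate 1 was the highest for 36 of 41 (87.8%, against 36.8% of all genes). EnzR EVs replicate 1 was the highest for 20 members (48.8%, against 39.1% of all genes) and the lowest for 16 (39.0%, against 47.7%). The 3 libraries with high Rn45s, from 2 groups, lay above all 6 others for 13 members (Cdc6, Dscc1, Exo1, Mcm7, Nasp, Rpa2, Rrm1, Rrm2, Slbp, Ubr7, Ung, Usp1 and Wdr76), where 15.5% of all genes did, and below all 6 for Mcm4, Pold3 and Tyms, where 17.9% did. Of these 13, 7 are among the 9 members that separated the vesicle groups. What part the Rn45s share had in the members' values was not tested.

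The median log2 CPM of the members gives 1 value per mouse. It was 5.77, 5.45 and 5.54 in PBS mice, 5.68, 5.72 and 5.73 after EnzR EVs and 5.65, 5.36 and 5.36 with HDL NPs. The summed level of the 7 early granulocyte markers was 2376, 2005 and 2248 CPM in PBS mice, 2487, 2552 and 2675 CPM after EnzR EVs and 2181, 1403 and 1452 CPM with HDL NPs. On these measures replicates 2 and 3 of the HDL NP group were lowest. By the median log2 CPM of the same 7 markers they were lowest as well: it was 8.17, 7.58 and 7.71 in PBS mice, 7.37, 8.32 and 8.39 after EnzR EVs and 7.61, 7.17 and 7.07 with HDL NPs, where EnzR EVs replicate 1 came next. The summed CPM of the members set them apart less, since it was 2171 and 2291 in HDL NP replicates 2 and 3 beside 2177 and 2300 in PBS replicates 2 and 3. By mean log2 CPM of the members, PBS replicate 2 (5.25) was just below HDL NP replicate 3 (5.26). By mean log2 CPM of the 7 markers, EnzR EVs replicate 1 (7.3) was below HDL NP replicate 2 (7.34). Of the early granulocyte markers, Mpo and Prtn3, enzymes of the primary granules, were lower with HDL NPs than with vesicles alone at an unadjusted edgeR p of 0.0131 and 0.00287, with log2 fold changes of -0.96 and -0.98, beside 6.97% of all genes lower at an unadjusted p under 0.05, and 0 of 7 passed the adjusted threshold. In that comparison 6 of the 7 had a fitted log2 fold change below 0 (median -0.322, highest 0.366), and for EnzR EVs against PBS 5 of 7 had one above 0 (median 0.0978). None of the 7 was at 0 counts in any library. Late neutrophil markers summed to 55089, 113930 and 106900 CPM in PBS mice, 30539, 122540 and 66653 CPM after EnzR EVs and 101570, 145570 and 82265 CPM with HDL NPs, so the 3 libraries with high Rn45s had the lowest sums. The fitted log2 fold change for EnzR EVs against PBS was below 0 for 9 of 9 late neutrophil markers. The same held for 7 of 7 monocyte markers (median -0.312, 2 without overlap) and 9 of 9 B lineage markers (median -1.01, 1 without overlap). Of all genes, 4.52% were lower without overlap. B lineage markers had a low summed level of 8.59 to 32.9 CPM per mouse. The fold change was also below 0 for 6 of 7 erythroid (median -0.96) and 5 of 6 platelet and megakaryocyte markers (median -0.555). So it was for 3 of 4 T and NK cell (median -0.446) and 3 of 5 stem and progenitor markers (median -0.0687). In the monocyte, B lineage and erythroid lists, 2 markers each were lower at an unadjusted edgeR p under 0.05, beside 1.92% of all genes. With HDL NPs against vesicles alone, 9 of 9 late neutrophil, 6 of 7 monocyte (median 0.355) and 6 of 9 B lineage markers (median 0.438) were above 0, as were 6 of 7 erythroid (median 0.329), 3 of 4 T and NK cell (median 0.13) and 3 of 6 platelet and megakaryocyte markers (median -0.199), while 4 of 5 stem and progenitor markers were below 0 (median -0.0278). For EnzR EVs + HDL NPs against PBS, 5 of 7 early granulocyte markers were below 0 (median -0.461). So were 9 of 9 B lineage (-0.715), 6 of 6 platelet and megakaryocyte (-0.713) and 5 of 7 monocyte markers (-0.215). The same held for 6 of 7 erythroid (-0.416), 4 of 4 T and NK cell (-0.316) and 4 of 5 stem and progenitor markers (-0.408). Of the late neutrophil markers, 6 of 9 were above 0 (median 0.147). No marker of these lists passed the adjusted threshold. The part of cell composition in the members' values was not tested.

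**Figure D5:**
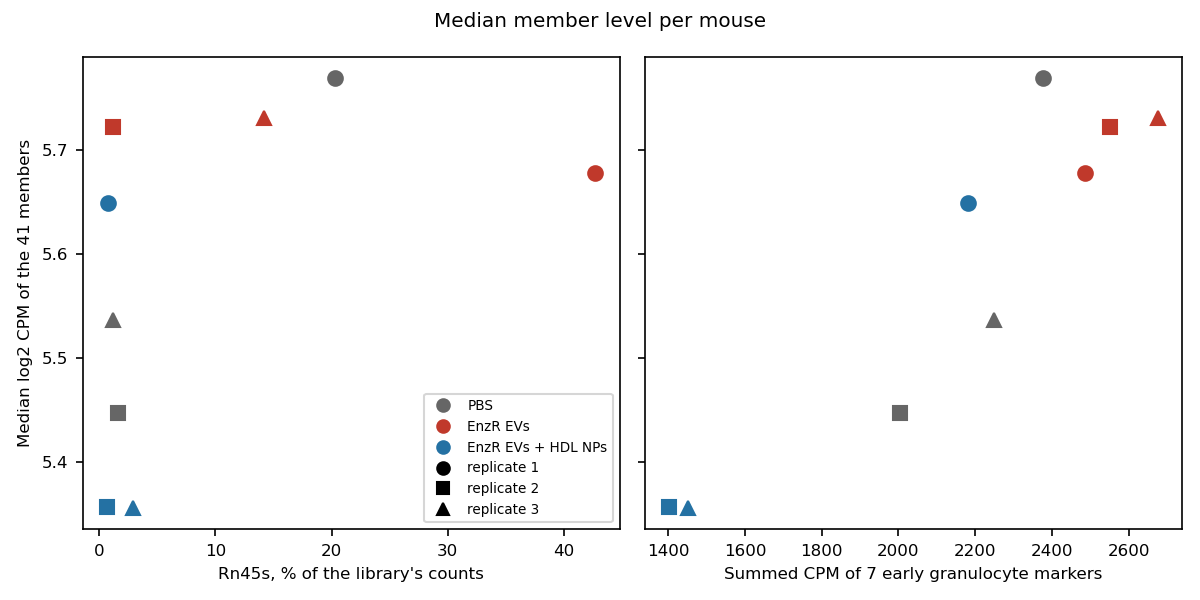
Median log2 CPM of the 41 members per mouse (y axis) against the share of Rn45s in the library (left x axis, %) and against the summed CPM of 7 early granulocyte markers (right x axis); colour gives the group and the symbol the replicate. HDL NP replicates 2 and 3 are lowest on the y axis (5.36) and on the marker sum (1403 and 1452 CPM), while their Rn45s shares (0.657% and 2.87%) lie with those of most libraries.

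Other genes of the cell cycle were read from the same fit. Of 50 other replication genes tested, 33 had a fitted log2 fold change above 0 for EnzR EVs against PBS (median 0.0591) and 30 were lower with HDL NPs than with vesicles alone (median -0.0541). No gene of that list was called, and 6 were lower in the latter comparison at an unadjusted p under 0.05: Pold1, the catalytic subunit of polymerase delta (-0.70), Lig1, the ligase that seals Okazaki fragments (-0.68), Rnaseh2a (-0.99) and Rnaseh2c (-0.56), subunits of the enzyme that removes RNA from DNA, Dut, which destroys dUTP (-0.82), and Chtf18, a clamp loader subunit (-0.64). At that p 6 of these 50 genes were lower, where 6.97% of all genes were. Without overlap of the vesicle groups, 11 of these 50 genes were lower with HDL NPs, beside 8.58% of all genes. Of 30 G1/S regulators outside the members, 25 were higher after EnzR EVs than PBS (median 0.270) and 25 lower with HDL NPs than with vesicles alone (median -0.471). At an unadjusted p under 0.05, 7 of the 30 regulators were lower in the latter comparison, where 6.97% of all genes were, and 0 higher. Among these 7 were Ccnd3, a D-type cyclin (-1.05), Ccne1 (-0.54) and Cdc25a, a phosphatase that activates cyclin-dependent kinases (-0.60). Without overlap, 8 of the 30 were lower and 2 higher (8.58% and 8.99% of all genes were). The summed CPM of these 30 regulators was highest in the libraries with high Rn45s: PBS replicate 1 (2561) and EnzR EVs replicates 1 and 3 (3348 and 2659). Elsewhere it was 1882 to 2174, with 2174 in EnzR EVs replicate 2. What part the Rn45s share had in these values was not tested. Of 30 mitosis genes, 26 were higher after EnzR EVs than after PBS (median 0.174), but 20 were also higher with HDL NPs than after PBS (median 0.165) and 17 lower with HDL NPs than with vesicles alone (median -0.0361). Without overlap, 9 of the 30 were higher with HDL NPs than after PBS (6.96% of all genes were), and 8 were lower with HDL NPs than with vesicles alone (8.58% of all genes were). At an unadjusted p under 0.05, 5 of the 30 mitosis genes were lower with HDL NPs than with vesicles alone, where 6.97% of all genes were, and 0 higher. None of the 30 G1/S regulators or 30 mitosis genes passed the adjusted threshold in any comparison.

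Members with and without the E2F word in their promoter had overlapping fold changes. Between the vesicle groups with and without HDL NPs, the 14 with the word had a median log2 fold change of -0.222 (range -0.672 to 0.420) and the 17 without it -0.333 (range -1.18 to 0.324). For EnzR EVs against PBS the medians were 0.165 and 0.0968. Of the 9 members that separated the vesicle groups, Mcm7, Cdc6, Cdca7 and Ubr7 held the word.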

How the data were processed

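RNA-seq counts per gene were used for 9 libraries, 3 mice in each of 3 groups, grouped by GEO's labels. The authors deposited whole-number counts, which the submitters' processing notes trace to cutadapt (version 1.13), STAR and HTSeq (version 0.6.1p1) on mm10, from a stranded total RNA kit after removal of ribosomal RNA; the strand setting of the counting is not given in the sources used here. Reads of overlapping or duplicated genes may therefore be lost or shared. Genes kept by edgeR's filterByExpr were scaled by TMM and tested in 1 quasi-likelihood fit over all 9 libraries (edgeR 4.0.16, R 4.3.3) with Benjamini-Hochberg adjustment over 12553 genes at 0.05. CPM are TMM-scaled, and log2 CPM used a prior count of 2. The fit was tested on simulated data. For single genes, exact two-sided permutation tests compared mean log2 CPM between groups of mice. P-values set a difference of groups against the spread between these mice only. In the edgeR fit that spread was estimated over all 9 libraries and partly shared across genes.

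Alternatives were DESeq2 1.42.0, limma voom (limma 3.58.1), other scalings and filters, a replicate block, and leaving out libraries. Whether same-numbered mice pair was checked by the correlation of their deviations from the group means. It was over 0.1 in all 3 pairs (0.131 to 0.492) for EnzR EVs against PBS, which met the criterion used for pairing. Mice of different number reached 0.429 in that comparison, 3 of 9 libraries correlated best with their own number in both other groups, and no label says what a number shares. In the other comparisons it was -0.175 to 0.293 for EnzR EVs + HDL NPs against PBS and -0.0363 to 0.209 for EnzR EVs + HDL NPs against EnzR EVs, and the mice shared only a number. No pair of libraries of a group agreed within sampling noise (chi-square of at least 4.48 per gene). The closest pair, PBS replicates 2 and 3 at 4.48, was far more alike than the others, at 28 to 578. These are the PBS mice that remain when the libraries with the fewest counts are left out.

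The members, lists and rules were chosen with earlier results of these data known. In each comparison the 4 members with the highest and the 4 with the lowest fold change were named with statistics, besides any past the threshold; the others are given by level. Genes that did not overlap between groups or had a low unadjusted p were named after their values were seen. Promoters are those of RefSeq, searched as written above. Depth limits the rare members: a floor of 3 counts was 0.160 to 1.65 CPM, and Ung reached only 0.656 CPM in 1 library.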

Additional observations from a re-analysis of the deposited data

How the results depend on the processing

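No member passed an adjusted p of 0.05 in any of the 18 alternative settings of any comparison. For EnzR EVs against PBS, 0 genes were called by edgeR, 11 by DESeq2, 0 by limma voom, 1 without a filter on low counts, 1 with the replicate block, 5 without the 2 libraries with the fewest counts, 10 without the 3 libraries with high Rn45s, and 0 to 2 when single mice were left out. DESeq2 called 8 genes for EnzR EVs + HDL NPs against PBS. In the comparison of EnzR EVs + HDL NPs with EnzR EVs, 1 gene was called by DESeq2, by a fit of the 6 libraries alone and without those 2 or 3 libraries. With the replicate block the medians of the members were 0.220, -0.0452 and -0.319, and 0 members were called.

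With library size only, the median log2 fold change of the members was 0.0250 for vesicles against PBS and -0.0326 for HDL NPs added to vesicles against vesicles alone, where the medians of all genes moved to -0.181 and 0.240. Over left-out mice it was 0.141 to 0.341, -0.135 to 0.0427 and -0.404 to -0.209 in the 3 comparisons, and 29 to 38, 11 to 27 and 6 to 12 members were higher. Against PBS, 28 members were higher with EnzR EVs + HDL NPs without the 2 libraries with the fewest counts and 28 without the 3 with high Rn45s. Against EnzR EVs, 20 were higher with library size only and 2 without those 3.

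Among named members, signs reversed as follows. For EnzR EVs against PBS, without the 2 and the 3 libraries, Pcna became 0.0460 and 0.257, Pold3 0.0743 and 0.264 and Tyms 0.00131 and 0.394; without the 3, Rfc2 became 0.0885 and Dscc1 -0.161. Leaving out single mice gave -0.501 to 0.0605 for Pcna, -0.558 to 0.153 for Pold3, -0.697 to 0.204 for Tyms (positive without PBS replicate 2 or 3, or EnzR EVs replicate 1 or 3) and -0.241 to 1.24 for Dscc1. For EnzR EVs + HDL NPs against PBS, Dscc1 became 0.115 without the 2 and 0.115 without the 3 libraries, and ranged from -0.635 to 0.113 over left-out mice. For EnzR EVs + HDL NPs against EnzR EVs, without the 3 libraries, Dscc1 became 0.276, Brip1 -0.0952, Tyms -0.381, Blm -0.0914 and Pold3 -0.117. The causes were not tested. Leaving out the 3 libraries, and the counts of members with a higher value under alternative settings, were added after seeing the data. When 2 of 3 mice of a group were left out, the lone mouse was assumed to vary like the others.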
